A study of Homo sapiens with 10 samples.

Results

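The comparison described here is the early response of human pluripotent stem cells to the ligand WNT3A. It rests on 4 of the 10 RNA-seq libraries of the series, chosen by their treatment labels. The WNT3A group holds 2 libraries of cells given recombinant WNT3A at 300 ng/ml for 6 h, and the mTeSR1 group holds 2 libraries of cells kept in the medium alone. All were wild-type ESI017, a human embryonic stem cell line, plated 24 h before treatment and kept throughout in mTeSR1, a chemically defined medium for pluripotent cells. The 2 biological repeats each gave 1 library to either group, so every WNT3A library has an mTeSR1 library of its own repeat. The labels give no time for the mTeSR1 cells, so 6 h of WNT3A and 6 h more in culture cannot be told apart. The other groups, WNT3A for 18 h and CHIR99021 at 8 µM for 6 h or 18 h, also enter the shared fit. Their levels are given below only where the group is named. All values come from 1 cell line.

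WNT ligands bind a Frizzled receptor together with LRP5 or LRP6, and this stops the complex of AXIN, APC and GSK3 from marking beta-catenin for destruction. Beta-catenin then enters the nucleus and binds TCF and LEF factors, displacing TLE co-repressors, and target genes are transcribed. Many of the targets are inhibitors of the pathway itself, and in pluripotent cells prolonged WNT signalling leads towards primitive streak and caudal fates.

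The WNT3A libraries held 21612926 and 26732910 counts, and the mTeSR1 libraries 18868737 and 18142080. Levels are given as CPM, counts scaled to a library of 1000000 with trimmed-mean factors, repeat 1 before repeat 2, and 3 counts in a library correspond to 0.118 to 0.17 CPM. CPM is not divided by transcript length, so levels are compared between libraries and not between genes. The 10 pluripotent stem cell markers, among them POU5F1, SOX2 and NANOG, summed to 10400 and 10200 CPM in WNT3A cells and 11200 and 11300 CPM in mTeSR1 cells, and none of them passed the test (DESeq2 called 0 as well, and 2 were under 0.05 before adjustment). Markers of neural progenitors, mesoderm, definitive endoderm, extraembryonic cells, fibroblasts or feeders, and blood or endothelium had no member past edgeR's test either. DESeq2 called 1 endoderm and 1 fibroblast marker, FOXA2 and THY1, and 3 endoderm, 2 fibroblast and 1 mesoderm marker had an unadjusted p under 0.05. Over all 15251 genes tested, DESeq2 called 377, and 1375 had an unadjusted p under 0.05 in edgeR. The 3 tested endoderm markers summed to 4.1 and 7.42 CPM in WNT3A cells, against 1.05 and 1.42 CPM in mTeSR1 cells. SOX17, which defines that lineage, had 1 count in WNT3A repeat 1 and 0 in the other 3 libraries. Fibroblast markers summed to 472 and 518 CPM against 565 and 663 CPM, with DCN at 0 in all 4 libraries, and no blood or endothelial marker passed the filter on low counts. These are bulk libraries, so fewer cells of a type and less RNA per cell cannot be told apart.

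Of 15251 genes tested, 168 had a Benjamini-Hochberg adjusted p (FDR) under 0.05 in edgeR's quasi-likelihood test with the biological repeat as a block, which is 1.1% of the genes. Higher in WNT3A cells were 140 genes (0.918%), and lower were 28 (0.184%). The higher genes had a median log2 change of 1.62, and 56 of them rose at least 4-fold. The lower genes had a median log2 change of -1.45, and 8 fell at least 4-fold. Of the 140 higher genes, 19 had a mean under 1 CPM in mTeSR1 cells, 38 had 1 to 10 CPM, 68 had 10 to 100 CPM and 15 had over 100 CPM. The median level in mTeSR1 cells was 14.4 CPM for higher genes, 31.7 CPM for lower genes and 21 CPM for all tested genes. All 168 had the same sign in both repeats. A test blocked on repeat favours such genes, so this agreement is no separate support. Remarks below that the groups of a gene lie apart describe its levels and are no separate support either. How many of all tested genes have groups that do not overlap was not counted. Of the 164 with an entry in the annotation, 163 were protein-coding. The protein-coding share of the 14930 annotated genes tested was not counted, so this is not read as a trait of the called genes.

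**Figure D1:**
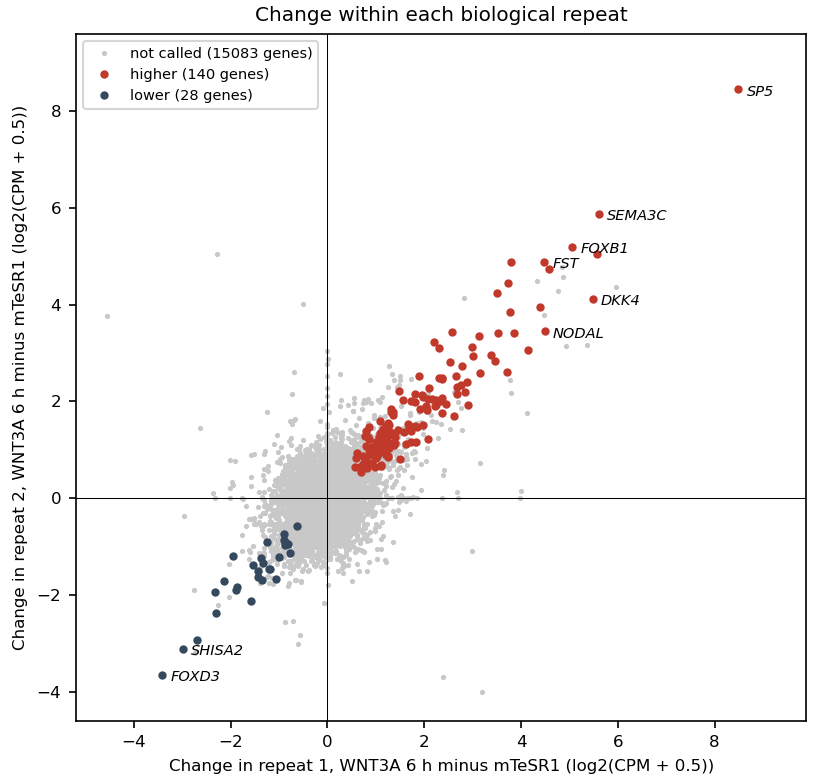
Each point is a tested gene, with the difference in log2(CPM + 0.5) between WNT3A 6 h and mTeSR1 in repeat 1 on the horizontal axis and in repeat 2 on the vertical axis. Red points are the 140 higher genes, dark points the 28 lower genes, and grey points those that did not pass. SP5 and SEMA3C lie far to the upper right and FOXD3 and SHISA2 to the lower left.

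The size of this set rests on the pairing and on each library. Without the replicate block 66 of the 168 genes passed, and no other gene did. Leaving out WNT3A repeat 1 gave 95 genes, WNT3A repeat 2 gave 56, mTeSR1 repeat 1 gave 22 and mTeSR1 repeat 2 gave 20, and no gene of the 168 changed sign. The 15 genes past the threshold under all 12 alternative settings were SP5, SEMA3C, FOXB1, HERC3, FST, KLF5, TLE3, CCND1, NTN1, NEDD9, RGMB, SALL3, SLC39A8, TNS3 and AL513523.9. Every other gene named as changed missed the threshold in at least 1 setting. Across genes, the change within repeat 2 had a Spearman correlation of 0.207 with transcript length, against 0.0514 within repeat 1 and 0.162 for the fitted change (14930 genes, which are not independent). Levels in repeat 2 minus repeat 1 correlated with length at 0.433 in WNT3A cells and 0.394 in mTeSR1 cells. The same correlation was -0.113 in WNT3A 18 h cells and -0.074 in CHIR99021 6 h cells. All groups share 1 repeat term in the fit, so that term does not describe the same length pattern in each group. The median transcript length was 4520 nt for higher genes, 3210 nt for lower genes and 3630 nt for all tested genes. The part of transcript length in these calls was not tested.

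The zinc finger factor gene SP5, a direct beta-catenin target in many tissues, lies at chromosome 2, 170715351 to 170718078, on the plus strand of GRCh38. SP5 had 311 and 175 CPM in WNT3A cells, against 0.366 and 0 CPM in mTeSR1 cells. Both WNT3A libraries were far above both mTeSR1 libraries, and the log2 change was 10.26 ± 0.76 (SE, FDR = 0.000713). The secreted LRP5 and LRP6 inhibitor gene DKK4 had 21.9 and 8.21 CPM in WNT3A cells and 0 counts in both mTeSR1 libraries, so it was at least 92.0-fold higher, from a floor of 3 counts per library (FDR = 0.015). FOXB1, a forkhead factor of the caudal neural plate and brain stem, had 72.2 and 92.9 CPM against 1.67 and 2.04 CPM. Its log2 change of 5.47 ± 0.19 had an FDR of 1.38e-05.

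SP5 was 1 of 19 genes among the 108 higher genes with a RefSeq promoter in the table used that held a TCF/LEF core motif, which is 17.6%. The motifs searched were AACAAAG and the versions of it whose first pair of bases is AT, TA or TT, on both strands, in the 250 bases before and 50 after each transcription start. The share was 22.7% of lower genes (5 of 22), 12.3% of tested genes and 16.4% of all genes in the table. Counted by promoter, it was 10.2% for higher genes (20 of 197), 17.9% for lower genes (5 of 28), 9.48% for tested genes and 13.8% for all. The higher genes therefore lay between the tested genes and the lower genes on either count. A match is only a string of letters in a window, and enhancers farther away were not read. Promoters are shown in order of log2 change among higher genes with a motif. The first is that of SP5, chr2:170715087-170715386 on the plus strand, with 3 matches, starting 148, 109 and 84 bases upstream of the start site. Shown with it, each with 1 match, are the promoters of FGF18 (chr5:171419397-171419696, plus strand), DACT1 (chr14:58633811-58634110, plus strand) and NEDD9 (chr6:11382299-11382598, minus strand), whose levels are given below. PTCHD4 ranked between DACT1 and NEDD9 and is not shown. Sequences are from RefSeq, GRCh38.p14, written 5′ to 3′ on the gene's strand, with the motif or its reverse complement in capitals.
SP5: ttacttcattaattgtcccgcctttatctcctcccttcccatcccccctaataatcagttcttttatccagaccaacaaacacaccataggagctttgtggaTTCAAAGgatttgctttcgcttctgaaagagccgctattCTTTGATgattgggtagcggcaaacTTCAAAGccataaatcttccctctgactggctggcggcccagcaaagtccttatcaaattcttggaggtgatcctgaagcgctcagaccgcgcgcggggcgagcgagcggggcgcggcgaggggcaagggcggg
FGF18: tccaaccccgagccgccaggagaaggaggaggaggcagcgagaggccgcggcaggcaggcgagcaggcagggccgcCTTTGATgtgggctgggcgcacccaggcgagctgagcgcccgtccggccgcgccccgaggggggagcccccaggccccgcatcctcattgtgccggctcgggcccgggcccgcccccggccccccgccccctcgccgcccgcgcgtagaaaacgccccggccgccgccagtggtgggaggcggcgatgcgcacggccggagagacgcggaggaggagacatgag
DACT1: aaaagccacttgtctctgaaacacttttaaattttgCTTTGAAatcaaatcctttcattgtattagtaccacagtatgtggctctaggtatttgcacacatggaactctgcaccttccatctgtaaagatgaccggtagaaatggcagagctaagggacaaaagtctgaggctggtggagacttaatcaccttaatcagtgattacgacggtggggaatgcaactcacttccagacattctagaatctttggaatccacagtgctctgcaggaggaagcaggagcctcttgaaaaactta
NEDD9: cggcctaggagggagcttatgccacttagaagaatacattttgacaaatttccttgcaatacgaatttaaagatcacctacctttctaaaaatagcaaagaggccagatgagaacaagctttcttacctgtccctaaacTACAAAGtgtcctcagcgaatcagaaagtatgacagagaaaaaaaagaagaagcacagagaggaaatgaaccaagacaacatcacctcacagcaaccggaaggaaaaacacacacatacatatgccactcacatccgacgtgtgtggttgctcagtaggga
DACT1 and NEDD9 each have 3 promoters in the table, of which 1 and 2 held a motif.

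Several inhibitors of the pathway rose. Of 21 tested feedback and intracellular regulators, 5 were higher (AXIN2, DKK4, NKD1, TRABD2A and RNF43), 1 was lower (SHISA2) and 15 did not pass, with a median log2 change of 0.32. Over all tested genes the median was 0.003 and 1.1% passed, which is the background for this and the following lists. For counts before adjustment the background is 1375 of 15251 genes, and for counts by DESeq2 it is 377 of 15251. Counts of list members are those of edgeR unless DESeq2 is named. AXIN2, the inducible scaffold of the destruction complex (chromosome 17, 65528563 to 65561647, minus strand), had 250 and 184 CPM in WNT3A cells and 39.3 and 31.7 CPM in mTeSR1 cells. The groups did not overlap, and the log2 change was 2.61 ± 0.31 (SE, FDR = 0.00708). NKD1, which binds Dishevelled, had 256 and 259 CPM against 11.8 and 16.3 CPM (log2 change 4.19, FDR = 0.0171). RNF43, a ubiquitin ligase that removes Frizzled from the surface, had 15 and 15.7 CPM against 0.68 and 2.15 CPM (log2 change 3.47, FDR = 0.0296). For both genes each WNT3A library was well above each mTeSR1 library. TRABD2A, a membrane protease that inactivates WNT proteins, had 17.1 and 20.6 CPM against 4.81 and 7.6 CPM (FDR = 0.0276). The RNF43 paralog ZNRF3 had 58.2 and 47.6 CPM against 33.5 and 40.4 CPM, with an FDR of 0.236. The secreted inhibitor SFRP1 had 763 and 662 CPM against 980.0 and 693 CPM (FDR = 0.9). DACT1, a Dishevelled-binding regulator outside this list, had 178 and 216 CPM against 9.62 and 25.3 CPM (log2 change 3.61, FDR = 0.000934).

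SHISA2, of a family first known in Xenopus for holding Frizzled and FGF receptors in the endoplasmic reticulum, was lower. It had 4.2 and 4.24 CPM in WNT3A cells, against 36.9 and 40.4 CPM in mTeSR1 cells. The groups were far apart in both repeats, with a log2 change of -3.2 ± 0.45 (SE, FDR = 0.0152).

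**Figure D2:**
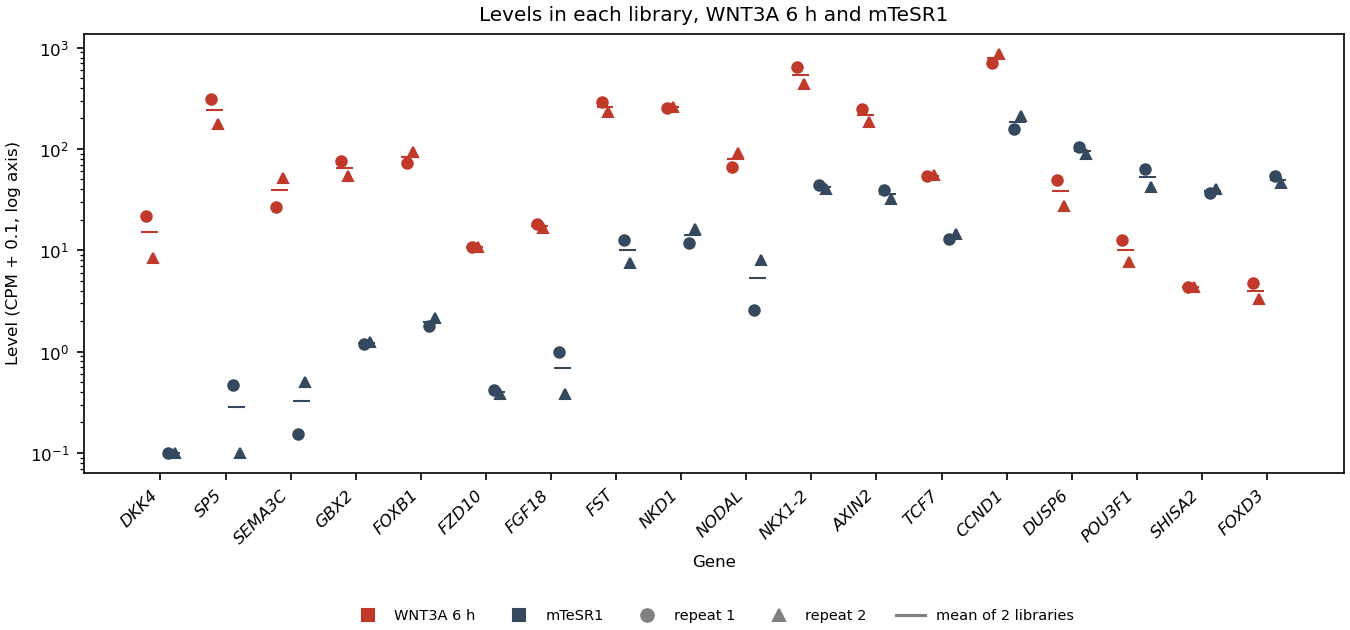
Levels of 18 genes in each library, as CPM plus 0.1 on a log axis, with WNT3A 6 h in red left of mTeSR1 in dark. Circles are repeat 1, triangles repeat 2 and short lines the mean of the 2 libraries. The genes drawn were picked from those that passed the test, so that their groups do not overlap is no separate support. DUSP6, POU3F1, SHISA2 and FOXD3 are lower in WNT3A cells.

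Nuclear effectors changed on the activating and the repressing side. Of 13 tested TCF and LEF factors, TLE co-repressors and beta-catenin co-activators of the BCL9 and PYGO families, 3 were higher and none lower in edgeR, with a median log2 change of 0.21. DESeq2 called those 3 and also LEF1, TLE4 and BCL9L, which had fitted log2 changes of 5.28, 0.80 and -0.56 in edgeR. TLE3, a Groucho-type co-repressor, had 381 and 458 CPM in WNT3A cells and 76.3 and 81.8 CPM in mTeSR1 cells. Its log2 change of 2.41 ± 0.19 (SE, FDR = 0.000934) was larger than that of TLE1, which had 304 and 297 CPM against 173 and 192 CPM (log2 change 0.72 ± 0.11, FDR = 0.0236). The difference between these paralogs was not tested. TCF7 had 53.6 and 55.2 CPM against 12.8 and 14.3 CPM (log2 change 2.01, FDR = 0.0117). Its exons overlap those of SKP1 on the other strand, which had a log2 change of -0.05. LEF1 had 30.5 and 13.3 CPM against 1.05 and 0.113 CPM. Both WNT3A libraries were higher, the edgeR FDR was 0.12, and the 95% interval of its log2 change ran from 2.53 to 8.03. Under the 12 alternatives its FDR ran from 3.13e-09 to 0.666, and 3 of them called it. TCF7L1, the main TCF of pluripotent cells and largely a repressor, had 206 and 245 CPM against 280.0 and 311 CPM (FDR = 0.765).

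On the receptor side, 2 of 19 tested genes were higher, with a median of 0.17. FZD10, a Frizzled receptor, had 10.7 CPM in both WNT3A libraries and 0.314 and 0.283 CPM in the mTeSR1 libraries (log2 change 5.14, FDR = 0.0082). TNFRSF19, an orphan receptor and known beta-catenin target, had 13.5 and 11.5 CPM against 1.1 and 0.68 CPM (log2 change 3.81, FDR = 0.0183). The groups were apart for both genes. FZD7, a Frizzled of pluripotent cells, had 629 and 630 CPM against 482 and 605 CPM, and LRP6 had 99.0 and 136 CPM against 106 and 138 CPM, with FDRs of 0.839 and 0.961. Of 16 tested ligand and secretion genes only WNT3 passed in edgeR, while DESeq2 also called WNT5B and WNT10B. WNT3, the ligand needed for primitive streak formation in the mouse, had 4.57 and 6.67 CPM against 0.784 and 1.19 CPM (log2 change 2.51, FDR = 0.00328), summed over 3 identifiers. WNT5B, a ligand mostly studied outside the beta-catenin branch, had 49.0 and 18.9 CPM against 1.73 and 0.907 CPM, with an FDR of 0.0792. None of the 16 genes of beta-catenin and its destruction complex passed in edgeR or DESeq2, 2 had an unadjusted p under 0.05, and their median was -0.03. CTNNB1, which encodes beta-catenin, had 551 and 741 CPM against 484 and 581 CPM (log2 change 0.28, 95% interval -0.18 to 0.73).

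Among 17 tested textbook targets, SP5, CCND1, SP8 and ID2 were higher and 13 did not pass, with a median of 0.68. CCND1, encoding cyclin D1 (chromosome 11, 69641087 to 69654474, plus strand), had 712 and 872 CPM in WNT3A cells and 158 and 210.0 CPM in mTeSR1 cells. The log2 change was 2.11 ± 0.16 (SE, FDR = 0.000851), and no other of the 21 tested cell cycle genes passed in edgeR, while DESeq2 also called CCND2 and CCND3. MYC, a target in colon cells, had 63.4 and 65.0 CPM in WNT3A cells against 86.0 and 82.6 CPM in mTeSR1 cells. Its log2 change was -0.40, with a 95% interval of -0.9 to 0.1 and an FDR of 0.705.

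Genes of caudal patterning rose with WNT3A. Of 11 tested caudal and axial genes, 4 were higher and none lower, with a median log2 change of 3.64, or 2.13 with genes at 0 counts set at their bound. NKX1-2, a homeobox gene of the caudal epiblast in mouse, had 641 and 434 CPM in WNT3A cells against 43.9 and 40.5 CPM (log2 change 3.64, FDR = 0.00112). GBX2, a homeobox gene that sets the hindbrain side of the midbrain boundary, had 75.3 and 53.7 CPM against 1.1 and 1.13 CPM (log2 change 5.84, FDR = 0.0204). SP8, a zinc finger paralog of SP5, had 28.3 and 15.5 CPM against 4.03 and 3.12 CPM (log2 change 2.58, FDR = 0.0169). Each had both WNT3A libraries above both mTeSR1 libraries. HES3, a Hairy-type repressor, was also higher (log2 change 1.62, FDR = 0.0463, or 0.194 without the block). CDX2 had 18.7 and 11.4 CPM against 0.157 and 0 CPM, which is 3 counts over the mTeSR1 libraries. The ratio was 180, with an exact 95% counting interval of 61.4 to 876, and the FDR over libraries was 0.316.

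On the anterior side, 1 of 11 tested genes was higher and none lower in edgeR, with a median of -0.67, while DESeq2 called HESX1 as well. HESX1, a homeobox gene of the anterior neural plate, had 4.29 and 4.4 CPM in WNT3A cells against 13.5 and 9.18 CPM in mTeSR1 cells (log2 change -1.36, edgeR FDR = 0.183). The member past edgeR's test was OTX1, a forebrain homeobox gene, with 10.8 and 3.49 CPM against 1.15 and 0.283 CPM (FDR = 0.0196, or 0.459 without the block). OTX2, its paralog, had 30.0 and 33.1 CPM against 67.8 and 42.2 CPM, with an FDR of 0.555. None of 12 tested primitive streak and mesendoderm genes passed in edgeR, although 10 of them had a log2 change above 0 and the median was 2.65, or 2.59 with genes at 0 counts set at their bound. An unadjusted p under 0.05 was found for 8 of them, and DESeq2 called 6 (EOMES, EVX1, FOXA2, GATA4, MIXL1 and TBXT). EOMES, a T-box factor of the streak, had 30.9 and 15.5 CPM against 0 and 0.283 CPM, with an FDR of 0.058. MIXL1, a homeobox factor of mesendoderm, had 27.4 and 49.0 CPM against 0.471 and 1.3 CPM, with an FDR of 0.17. Chosen after its values were seen, TBXT, the brachyury gene, had 13.2 and 9.23 CPM and 0 counts in both mTeSR1 libraries. It was at least 68.5-fold higher from the same floor, with an FDR of 0.31. In all 3 genes both WNT3A libraries were above both mTeSR1 libraries without passing the test. The CHIR99021 18 h libraries, which share the fit, differed from each other in these genes. TBXT had 3.52 and 49.2 CPM there, EOMES 11.2 and 74.8 CPM and MIXL1 7.4 and 84.3 CPM. The 12 alternative settings include a fit without these libraries, and EOMES was called in 4 of the 12 and MIXL1 in 3. Which settings these were is not given here, and the part of this spread in the FDRs was not tested further.

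Of 22 tested pluripotency genes, 2 were higher, among them KLF5, FOXD3 was lower and 19 did not pass, with a median of -0.09. FOXD3, a forkhead factor that maintains pluripotent and neural crest cells (chromosome 1, 63323041 to 63325126, plus strand), had 4.62 and 3.18 CPM in WNT3A cells against 54.0 and 45.6 CPM in mTeSR1 cells. No WNT3A library came near an mTeSR1 library, and the log2 change was -3.68 ± 0.39 (SE, FDR = 0.00391). KLF5 had 19.2 and 20.6 CPM against 1.2 and 1.47 CPM (log2 change 3.89, FDR = 0.000636). POU5F1 had 1370 and 561 CPM against 1660 and 950.0 CPM, a log2 change of -0.47 with an FDR of 0.798. The repeats differed more in its level than the groups did.

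FOXD3 and SHISA2 led the falls among genes with at least 5 CPM. POU3F1, a POU factor of epiblast and neural cells, had 12.5 and 7.58 CPM in WNT3A cells against 63.4 and 41.6 CPM (log2 change -2.4, FDR = 0.0114). FOXJ1, the master factor of motile cilia, had 1.08 and 1.1 CPM against 6.48 and 4.76 CPM (log2 change -2.34, FDR = 0.0171). Both genes fell in both repeats. VLDLR, a lipoprotein and reelin receptor, had 10.8 and 15 CPM against 28.4 and 49.6 CPM (log2 change -1.56, FDR = 0.0171), and no other of the 12 integrated stress response genes passed in edgeR. The other falls by the naming rule were GRPR, HSPB8, HS3ST5, RASL11B, RAB17 and RIPOR2, with log2 changes of -1.97, -1.77, -1.61, -1.51, -1.36 and -1.31. GRPR encodes the receptor for gastrin-releasing peptide, HSPB8 a small heat shock protein and HS3ST5 a heparan sulfate sulfotransferase. GRPR and RAB17 had an FDR of 0.79 without the block, and their levels differed between repeats.

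Components of 1 TNF receptor system moved in opposite directions, a set chosen after its values were seen. TNFSF11, encoding the ligand RANKL, had 1.84 and 1.53 CPM in WNT3A cells against 8.21 and 7.03 CPM (log2 change -2.18, FDR = 0.018). TNFRSF11A, encoding its receptor RANK, had 13.4 and 9.03 CPM against 31.7 and 25.6 CPM (log2 change -1.36, FDR = 0.0151). TNFRSF11B, encoding the decoy receptor osteoprotegerin, had 10.3 and 6.56 CPM against 0.941 and 1.36 CPM (log2 change 2.84, FDR = 0.037). Ligand and receptor were lower and the decoy higher in each repeat. None of these calls held without mTeSR1 repeat 1, where the FDRs were 0.236 for TNFSF11, 0.211 for TNFRSF11A and 0.471 for TNFRSF11B. Without the block the FDRs were 0.0667 for TNFRSF11A and 0.0602 for TNFRSF11B.

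In the NODAL, activin and TGF-beta list 2 of 25 tested genes were higher, a ligand and an antagonist of the activin branch, and the median was -0.17. NODAL (chromosome 10, 70432315 to 70447951, minus strand) had 66.1 and 91.8 CPM in WNT3A cells against 2.46 and 7.94 CPM (log2 change 4.12 ± 0.30, SE, FDR = 0.000636, or 0.0638 without the block). FST, encoding follistatin, which binds activin, had 290.0 and 234 CPM against 12.5 and 7.43 CPM (log2 change 4.74 ± 0.38, SE, FDR = 0.000934). For both genes each WNT3A library was far above each mTeSR1 library. Chosen after its values were seen, LEFTY1, an inhibitor of NODAL and usually its target, had 0.849 and 5.46 CPM against 8.57 and 21.7 CPM, with an FDR of 0.533. In the BMP list, ID2 and MSX2 were higher of 19 tested, with a median of 0.13. ID2, an inhibitor of basic helix-loop-helix factors, had 54.0 and 31.7 CPM against 10.1 and 9.01 CPM (FDR = 0.0374). MSX2 had 1.84 and 0.667 CPM against 0.0523 and 0 CPM (FDR = 0.0493, or 0.141 without the block). Of the 11 alternatives that tested it, 7 lost the call. MSX2 had 1 count over the mTeSR1 libraries, and its count ratio was 44.1, with an exact 95% counting interval of 7.59 to 1770. That interval leaves out the spread between libraries. ID1, a common BMP target likewise chosen after its values were seen, had 26.8 and 27.6 CPM against 47.7 and 46.3 CPM, with an FDR of 0.567.

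In the FGF and ERK list, ligands were among the higher genes and an ERK phosphatase among the lower. Of 27 tested members 3 were higher, 2 lower and 22 did not pass, with a median of -0.01. FGF18 had 17.9 and 16.6 CPM in WNT3A cells against 0.889 and 0.283 CPM (log2 change 4.85, FDR = 0.00584), and FGF19 had 40.8 and 43.7 CPM against 9.99 and 14.9 CPM (log2 change 1.8, FDR = 0.00328). ETV1, an ETS factor downstream of FGF, was also higher (log2 change 0.79, FDR = 0.0316). DUSP6, the ERK phosphatase that ERK activity induces, had 49.4 and 27.4 CPM against 104 and 88.2 CPM (log2 change -1.39, FDR = 0.0399). FGF13, an intracellular FGF homolog, was lower too (log2 change -0.92, FDR = 0.0163). SPRY4, another ERK feedback gene, had 226 and 254 CPM against 180.0 and 248 CPM, with an FDR of 0.857. The phosphatase genes DUSP5 and DUSP4, chosen after their values were seen, went the other way from DUSP6. DUSP5 had 48.8 and 27.1 CPM against 23.2 and 20.1 CPM (log2 change 0.76, edgeR FDR = 0.0858), and DESeq2 called it. DUSP4 had a log2 change of 0.45 (edgeR FDR = 0.755). ERRFI1, an inhibitor of the EGF receptor outside the list, had 20.6 and 22.9 CPM against 52.7 and 59.0 CPM (log2 change -1.36, FDR = 0.0463). Without the block the FDRs were 0.394 for DUSP6, 0.3 for FGF13, 0.223 for ETV1, 0.0919 for ERRFI1 and 0.0505 for FGF19, so these calls were lost, and 0.011 for FGF18.

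In the Notch list, the ligand gene JAG1 was higher, with 82.8 and 68.8 CPM against 34.0 and 33.4 CPM (log2 change 1.16, FDR = 0.0135), as was HES3. The other 16 of 18 tested Notch genes did not pass in edgeR, and the median was -0.07. DESeq2 also called LFNG, a Notch glycosyltransferase, which had a log2 change of -1.44 and an FDR of 0.0834 in edgeR. In the Hippo list, AMOTL2, a junctional protein that holds YAP1, had 136 and 113 CPM against 57.8 and 49.3 CPM (log2 change 1.21, FDR = 0.0147), and no other of the 19 tested genes passed in edgeR. The median of the list was 0.04. TEAD1, a DNA-binding partner of YAP1, had 189 and 336 CPM against 101 and 139 CPM, and its FDR was 0.0521.

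Of 33 tested axon guidance genes, 5 were higher and 1 lower, with a median of 0.05. SEMA3C, a secreted semaphorin, had 26.5 and 51.9 CPM in WNT3A cells against 0.0523 and 0.397 CPM (log2 change 7.43 ± 0.51, SE, FDR = 0.000636). NTN1, encoding netrin 1, had 59.7 and 28.6 CPM against 6.27 and 4.37 CPM (log2 change 3.0, FDR = 0.000934). The groups did not overlap for either gene. EFNB2, EPHA4 and EFNA5, ligands and a receptor of the ephrin system, had log2 changes of 1.33, 1.9 and 1.14. NRP2, a receptor for class 3 semaphorins, was lower, with 45.3 and 28.8 CPM against 85.3 and 48.5 CPM (log2 change -0.83, FDR = 0.0285). Its WNT3A and mTeSR1 values nearly met across repeats, and without the block the FDR was 0.951. Of 17 cadherin and epithelial-mesenchymal genes none passed in edgeR, while 4 were under 0.05 before adjustment and DESeq2 called CDH6 and ZEB2. CDH1, encoding E-cadherin, had 339 and 395 CPM against 282 and 363 CPM (FDR = 0.785).

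**Figure D3:**
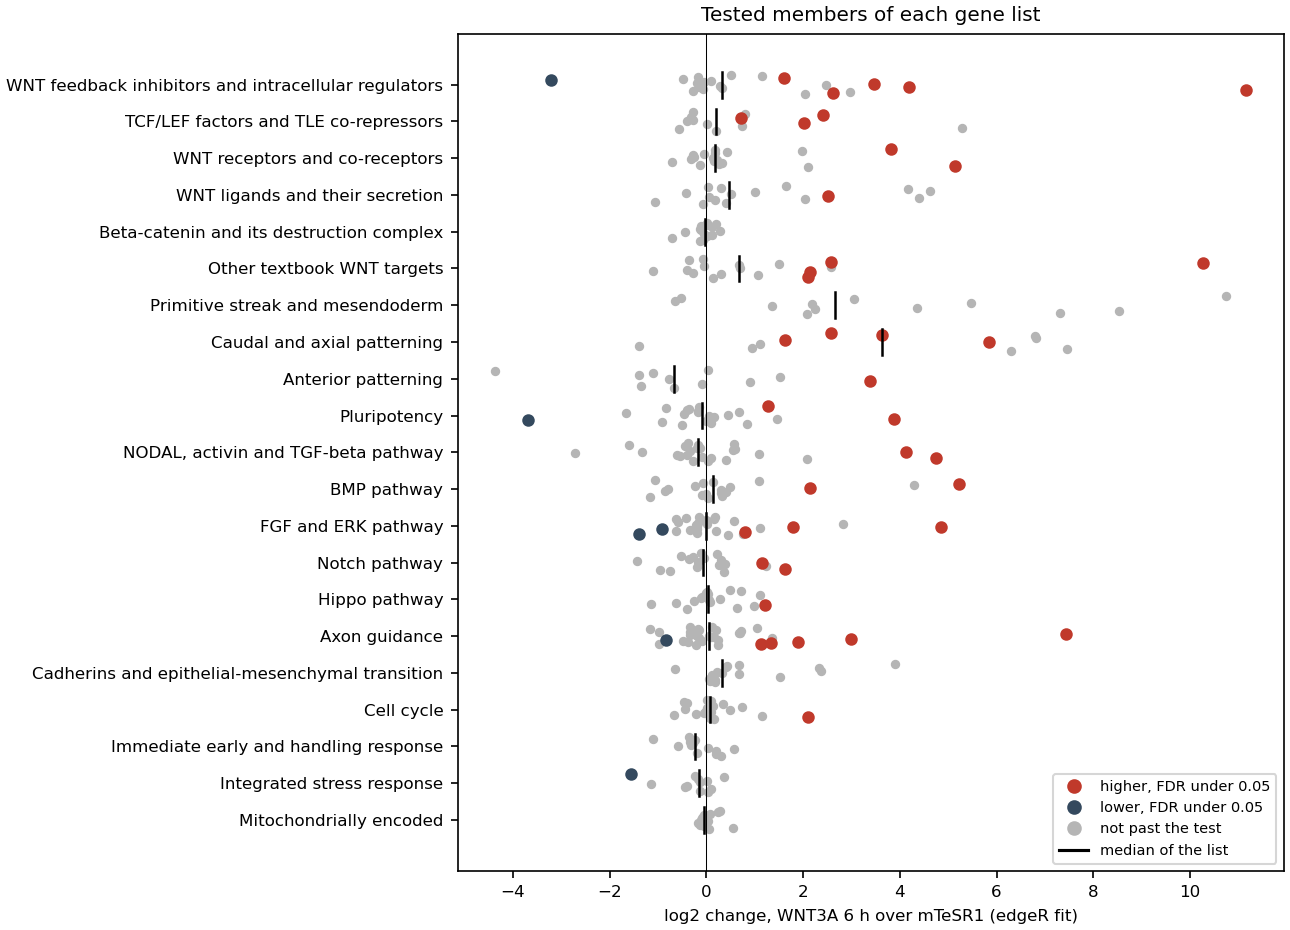
Each point is a tested member of 1 of 21 gene lists, placed by its log2 change of WNT3A 6 h over mTeSR1 in the edgeR fit. Red points are higher and dark points lower at an FDR under 0.05, grey points did not pass, and black lines are list medians. The caudal list has a median of 3.64 and 4 higher members, while the primitive streak list has a median of 2.65 and none.

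The lists held 403 genes, of which 362 were tested, 34 were higher and 6 lower. DESeq2 called 377 of all 15251 tested genes, against 168 by edgeR, and more members in most lists. It called 4 of 19 receptor genes, 6 of 17 textbook targets, 7 of 11 caudal genes and 4 of 22 pluripotency genes. BMP genes numbered 3 of 19, FGF and ERK genes 7 of 27, and Hippo genes 5 of 19. Guidance genes numbered 8 of 33 and stress response genes 2 of 12. By edgeR, a further 106 higher and 22 lower genes were in none of the lists. By the naming rule, these included GAD1, which makes GABA, with 39.0 and 18.8 CPM in WNT3A cells against 1.15 and 0.227 CPM (log2 change 5.35, FDR = 0.0256). PROX1, a homeobox factor of liver, lymphatic and neural progenitors, had 12.3 and 19.6 CPM against 0.627 and 0.567 CPM (log2 change 4.71, FDR = 0.00124). HERC3, a HECT-type ubiquitin ligase, had 23.0 and 41.3 CPM against 1.2 and 0.907 CPM (log2 change 4.85, FDR = 0.000636). The groups of all 3 genes were well apart. KCTD16, an auxiliary subunit of GABA-B receptors, and ELMOD1 had log2 changes of 4.64 and 3.7.

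Other higher genes outside the lists were picked after their values were seen. Hyaluronan genes included the synthases HAS2, with 17.3 and 26.7 CPM in WNT3A cells against 5.54 and 6.12 CPM (log2 change 1.88, FDR = 0.00249), and HAS3, with 234 and 184 CPM against 98.2 and 99.8 CPM (log2 change 1.06, FDR = 0.0233). CEMIP2, a cell surface protein linked to hyaluronan breakdown, had 229 and 291 CPM against 94.2 and 111 CPM (log2 change 1.34, FDR = 0.00305). Each of them was higher in both repeats. Among transcription and chromatin regulators, SALL3 had 237 and 322 CPM against 63.8 and 55.4 CPM (log2 change 2.22, FDR = 0.000636), and SALL1 259 and 302 CPM against 117 and 125 CPM (log2 change 1.21, FDR = 0.0396). REST, the repressor of neuronal genes, had 151 and 183 CPM against 62.2 and 63.3 CPM (log2 change 1.42, FDR = 0.008). RREB1 had 150.0 and 250 CPM against 39.6 and 69.7 CPM (log2 change 1.88, FDR = 0.00415). The WNT3A libraries of these factors were all above the mTeSR1 libraries. Signalling genes included PTCH1, the Hedgehog receptor (log2 change 1.12, FDR = 0.0209), RGMB, a BMP co-receptor (log2 change 2.09, FDR = 0.000636), KITLG, the ligand of KIT (log2 change 1.97, FDR = 0.00583) and PIK3R1, a regulatory subunit of PI 3-kinase (log2 change 2.24, FDR = 0.00826). MCC, a gene named for mutation in colorectal cancer, had 163 and 204 CPM against 35 and 21.3 CPM (log2 change 2.76, FDR = 0.00328). SLC39A8, a zinc and manganese importer, had 62.9 and 75.2 CPM against 14.9 and 20.3 CPM (log2 change 1.98, FDR = 0.000636).

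No immediate early or mitochondrially encoded gene passed in edgeR or DESeq2. Of 13 tested immediate early genes 1 had an unadjusted p under 0.05, with a median log2 change of -0.24, and of 13 mitochondrially encoded genes 0 did, with a median of -0.04. Over all 15251 tested genes 1375 did. Mitochondrial genes took 4.51% and 5.37% of counts in WNT3A libraries and 3.94% and 6.73% in mTeSR1 libraries.

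The direct contrast of WNT3A for 18 h with WNT3A for 6 h called 279 genes (1.83%), 87 higher (0.57%) and 192 lower (1.26%) at 18 h. Among the 140 genes higher at 6 h over mTeSR1, 8 were higher again at 18 h and 21 were lower, and both contrasts use the same 6 h libraries. TLE3 had 138 and 103 CPM at 18 h against 381 and 458 CPM at 6 h (log2 difference -1.81, FDR = 0.0119). NEDD9, a scaffold of integrin signalling, had 9.27 and 7.77 CPM at 18 h against 31.0 and 32.2 CPM at 6 h (log2 difference -1.89, FDR = 0.0135). PAQR5, a membrane progestin receptor, had 15 and 15.3 CPM at 18 h against 31.9 and 42.1 CPM at 6 h (log2 difference -1.27, FDR = 0.0148). The 18 h libraries of these genes all lay below the 6 h libraries. SP8 was higher at 18 h, with 84.5 and 54.5 CPM against 28.3 and 15.5 CPM at 6 h (log2 difference 1.69, FDR = 0.0446), and was chosen after its values were seen.

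Of the 28 genes lower at 6 h, 7 were higher at 18 h than at 6 h and 2 were lower still. PCDH10, a protocadherin, had 15.4 and 18.4 CPM at 18 h against 0.707 and 1.22 CPM at 6 h (log2 difference 4.15, FDR = 0.00736). FGF13 had 30.6 and 43.5 CPM at 18 h against 13.9 and 17.9 CPM at 6 h (log2 difference 1.21, FDR = 0.0135). Both were above their 6 h level in both repeats at 18 h. SHISA2 had 0.612 and 0.403 CPM at 18 h against 4.2 and 4.24 CPM at 6 h (log2 difference -3.05, FDR = 0.047). AXIN2 had 211 and 168 CPM at 18 h against 250 and 184 CPM at 6 h, a log2 difference of -0.19 with a 95% interval of -0.85 to 0.47. The number of genes called between the times was 1 without WNT3A 6 h repeat 2 and 22 without the block.

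CHIR99021 inhibits GSK3 and so stabilises beta-catenin without a ligand. Against CHIR99021 at 6 h, the WNT3A cells differed in 3 genes (0.0197%), 2 higher (0.0131%) and 1 lower (0.00656%). NEDD9 had 31.0 and 32.2 CPM in WNT3A cells against 7.68 and 7.12 CPM in CHIR99021 cells (log2 difference 2.09, FDR = 0.0278). SMARCA2, an ATPase of SWI/SNF chromatin remodelling, had 49.8 and 118 CPM against 17.1 and 37.3 CPM (log2 difference 1.6, FDR = 0.0278), and 5.8 and 13.2 CPM in mTeSR1 cells. Each was higher with WNT3A within both repeats. The other gene was AL513523.9, which had 0 counts in both WNT3A 6 h libraries. In edgeR the count was 0 without any single one of the WNT3A 6 h and mTeSR1 libraries, with 552 to 3608 genes at an unadjusted p under 0.05. On all libraries DESeq2 called 100.

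Of all tested genes, 1837 had an unadjusted p under 0.05 between WNT3A and CHIR99021 at 6 h. Some genes changed by WNT3A missed the threshold with an interval of the difference that did not hold 0. SP5 had 311 and 175 CPM in WNT3A cells against 61.0 and 57.4 CPM in CHIR99021 cells, a log2 difference of 1.98 with a 95% interval of 0.98 to 2.98 and an FDR of 0.397. NKD1 had 256 and 259 CPM against 48.2 and 41.8 CPM, a difference of 2.52 with an interval of 1.26 to 3.79. AXIN2 had 250 and 184 CPM against 104 and 112 CPM, a difference of 0.98 with an interval of 0.32 to 1.65. WNT3A levels were above CHIR99021 levels in both repeats for all 3 genes. FOXD3 had 4.62 and 3.18 CPM in WNT3A cells against 10.4 and 9.87 CPM in CHIR99021 cells, a log2 difference of -1.39 with an interval of -2.25 to -0.53. FGF19 had an interval of -0.24 to 0.55, which does. The 5 genes of this paragraph were chosen after their values were seen. The doses of the ligand and the inhibitor are not matched in any common unit.

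**Figure D4:**
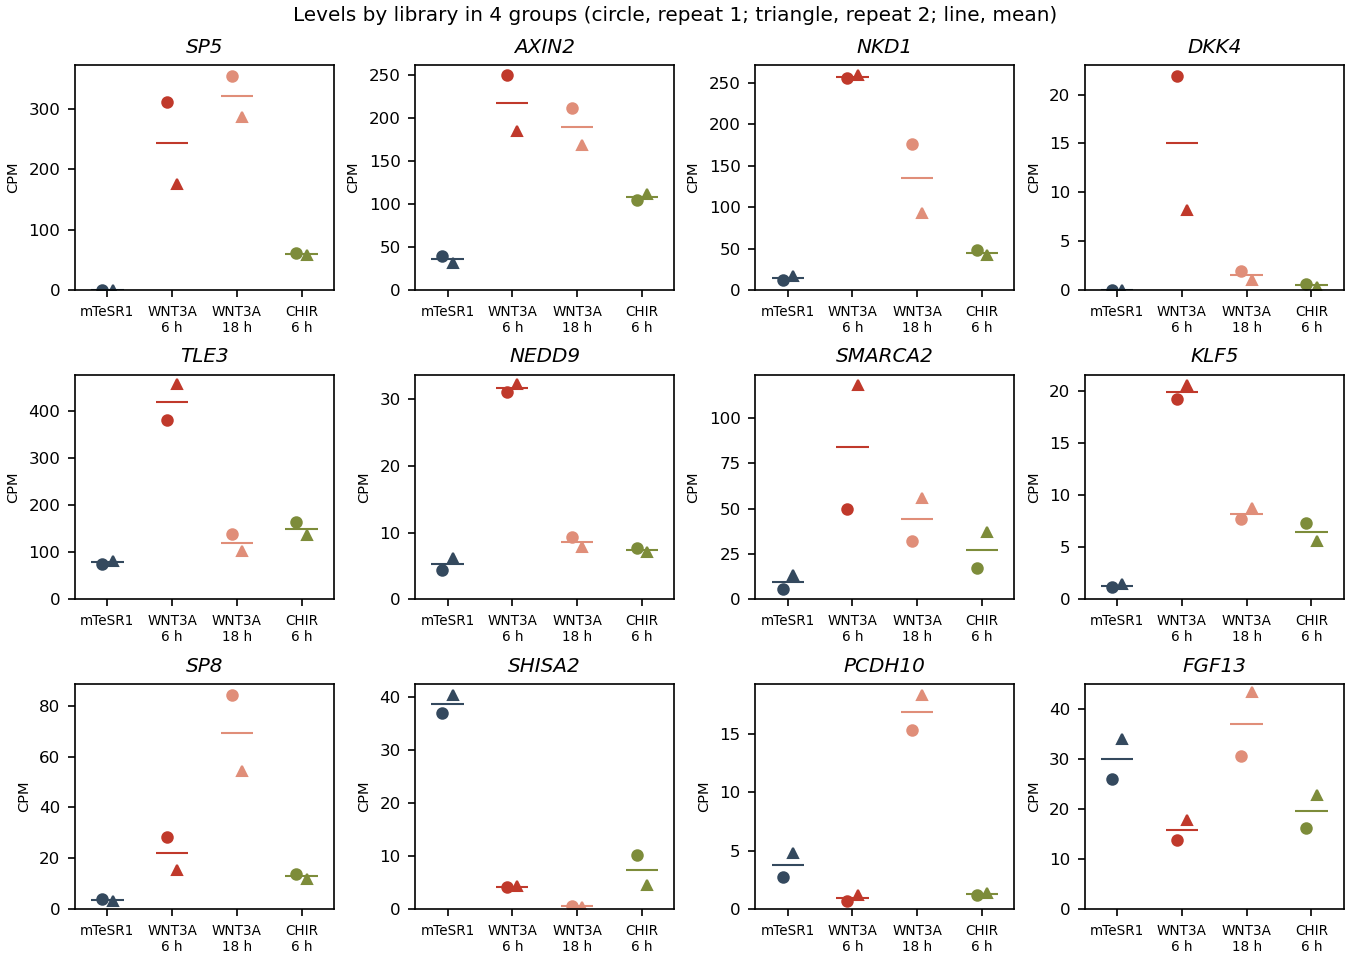
Levels in CPM of 12 genes in mTeSR1, WNT3A 6 h, WNT3A 18 h and CHIR99021 6 h, with circles for repeat 1, triangles for repeat 2 and lines for the mean. Of the 4 groups drawn, TLE3 and NEDD9 are highest at WNT3A 6 h and SP8 at WNT3A 18 h.

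AL513523.9 and, chosen after its values were seen, GUSBP9 had 0 counts in both WNT3A 6 h libraries. In mTeSR1 the first had 2.72 and 3.29 CPM and the second 1.99 and 1.42 CPM. From the same floor they were at least 23.2-fold and 13.1-fold lower. The first is on no primary chromosome in the annotation used and the second is a pseudogene, so reads of near-identical copies may be divided among identifiers, and both are uncertain. Exons of 20 called genes overlap those of another expressed gene, 14 of them on the opposite strand, and none of the partners was called. These include CCND1 with LTO1, TRABD2A with TMSB10 and REST with NOA1 on opposite strands, and RNF43 with SUPT4H1 on the same strand. Those partners had log2 changes of -0.16, -0.5, -0.14 and 0.27. Other partners, chosen after their values were seen, rose with the called gene without passing. Among them were C4orf19 with RELL1 (log2 change 2.51, FDR = 0.0812), LRRC17 with FBXL13 (1.16, FDR = 0.0679) and NOS1AP with C1orf226 (1.11, FDR = 0.0752). How many of all tested genes overlap another was not counted. The strand setting of the counting is not stated, and reads of such pairs cannot be told apart.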

How the data were processed

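Poly-A RNA of ESI017 cells was sequenced in paired ends, per the labels' protocols. The authors deposited 1 table of estimated counts, with a column for each library. The submitters' processing notes name Salmon 1.8.0 and GRCh38. Nothing in the labels or the table states the transcript set, the strand setting or a filter. Estimated counts were rounded to whole numbers and the 37951 identifiers were summed to 35940 symbols, of which 13588 were at 0 in all 10 libraries. No identifier lacked a symbol. Coordinates are from GENCODE release 29.

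Genes were tested with edgeR 4.0.16 in R 4.3.3 (robust quasi-likelihood test, trimmed-mean scaling, minimum count 10 and minimum total 15). All 10 libraries entered 1 fit with group and biological repeat as terms. Both CHIR99021 18 h libraries carry the repeat number 2 in their labels and were placed in repeat 2, where the design text adds that condition, and how they relate to each other is not stated. P-values were adjusted by the Benjamini-Hochberg method over all 15251 genes, and "changed" means an adjusted p (FDR) under 0.05. Pairing by repeat follows the design text, which describes biological repeats. As a check, deviations from the group means of same-numbered libraries correlated at 0.691 between WNT3A 6 h and mTeSR1, and at 0.277 to 0.691 over 6 pairs of groups. Replicates of a group all differed by more than sampling noise. Within-repeat changes are differences of log2(CPM + 0.5). Library totals ran from 16648336 to 26732910 counts, and exact intervals and floors cover counting error alone.

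Alternatives were no block, other size factors, no filter or a minimum count of 50, identifiers kept apart, fewer groups in the fit, DESeq2 1.42.0 and leaving out each WNT3A 6 h and mTeSR1 library. The members and lists were chosen with earlier results of these data known, so lists have counts and medians but no test. Genes were named by rule: up to 20 rises and 15 falls by size with at least 5 CPM in the higher group, up to 6 called and 3 uncalled members of each list, any member of the WNT lists, and up to 6 genes per further contrast. Others are DESeq2 calls of a list, marker genes, overlap partners or a gene ranked by its promoter, or are marked as chosen after their values were seen. The motif windows are 300 bases of RefSeq, GRCh38.p14. A list member that passed the test is not reported here by name.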

Additional observations from a re-analysis of the deposited data

Results flagged for a closer look

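Of the genes changed by WNT3A at 6 h, these had a further difference in a direct contrast that shares the 6 h libraries. Between WNT3A 18 h and WNT3A 6 h the log2 differences were 4.15 for PCDH10, 8.73 for AL513523.9, -1.81 for TLE3, -1.89 for NEDD9, 1.21 for FGF13 and -1.27 for PAQR5. Between WNT3A 6 h and CHIR99021 6 h they were -8.92 for AL513523.9, 2.09 for NEDD9 and 1.6 for SMARCA2. The fitted values of AL513523.9 depend on the prior count, since it had 0 counts in both WNT3A 6 h libraries, and 1 identifier off the primary chromosomes carries it. SP5 also had 135 and 370 CPM, a mean of 253 CPM, in the CHIR99021 18 h libraries, against 0.366 and 0 CPM in the mTeSR1 libraries. The CHIR99021 18 h libraries enter no contrast here, but they share the fit behind every edgeR p-value.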

How the results depend on the processing

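No gene of the 168 changed direction under any alternative. Genes that had not passed and are named above for their level did cross 0, with log2 changes of -0.57 to 0.12 for SFRP1, -0.28 to 0.15 for LRP6, -0.03 to 0.53 for CTNNB1, -0.06 to 0.42 for SPRY4 and -1.11 to 0.01 for POU5F1. Of the 168 genes, 150 lost their call in at most 6 of the 12. In the fit with no replicate block, WNT3A 6 h against mTeSR1 had 66 changed genes, 59 higher and 7 lower, WNT3A 18 h against 6 h had 22, and WNT3A 6 h against CHIR99021 6 h had 1. With only the compared groups in the fit, the first contrast had 1048 genes, 602 higher and 446 lower, and the others 482 and 75. DESeq2 called 377, of which 286 were higher and 91 lower, and 923 and 100 in the other contrasts. With no filter on low counts 46 genes were lower, and the other contrasts had 479 and 10. With identifiers kept apart they had 168 and 0. Leaving out each WNT3A 6 h and mTeSR1 library in turn gave 20 to 95 changed genes, 19 to 89 higher and 1 to 6 lower, against 1 to 438 and 0 in the other contrasts, whose WNT3A 18 h and CHIR99021 6 h libraries were not left out. Leaving the CHIR99021 18 h libraries out of the fit, chosen after seeing the data, gave 16 genes between WNT3A 6 h and CHIR99021 6 h. For WNT3A 6 h against mTeSR1 that fit gave 214 genes. Of these, 151 were among the 168, and 17 of the 168 were lost. Other size factors and a minimum count of 50 kept each count within 1.5 times. The cause of these shifts was not tested. With 2 libraries a group, p-values rest on a spread shared over 5 groups, and genes near 3 counts are limited by depth.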
